A study of Mus musculus with 36 samples.

Results

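The Slc25 genes encode the mitochondrial carrier family. They were described here in mouse kidney under 2 diets and at 6 times of day. Members were chosen by name, as the genes whose symbol is Slc25a followed by a number, and 47 of the 24883 rows of the deposited tables had such a symbol. Of these, 37 had a mean of at least 1 FPKM (fragments scaled to transcript length and library size) over all 36 libraries and are the members described below, with Slc25a25 singled out by the same rule. The other 10 lay below that level.

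Mitochondrial carriers are small proteins, most of them of the inner mitochondrial membrane. Most exchange a few related molecules between the cytosol and the mitochondrial matrix. These are adenine nucleotides and phosphate, intermediates of the citric acid cycle, amino acids, acylcarnitines, vitamins and other cofactors, or iron and glutathione. The cells of the kidney tubule are densely packed with mitochondria, which supply the ATP for salt reabsorption and take part in ammonia production and gluconeogenesis. Slc25a25 belongs to a calcium-binding branch of the family that exchanges ATP complexed with magnesium for phosphate and so sets the pool of adenine nucleotides in the matrix.

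Kidneys came from male wild-type mice (C57BL/6J in the sample labels) that received normal chow or a high-fat diet, freely available, from 6 weeks of age. Lights were on for 12 h and off for 12 h, and Zeitgeber time (ZT) is the number of hours since lights on. The harvest is labelled 16 weeks and took place at ZT0, ZT4, ZT8, ZT12, ZT16 and ZT20, with 3 mice for each diet and time, giving 12 groups. The label field that holds the diet mentions ZT3, a time that no title gives, and its meaning is not stated. The study's title and design put daily rhythms and diet at the centre, so level and rhythm were each compared between diets.

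All 9 kidney markers, from the phosphate transporter Slc34a1 to the podocyte gene Nphs1, were present in every library, and their summed level was 3389 to 4550 FPKM under normal chow and 3709 to 4433 FPKM under the high-fat diet. Markers of tissue around the kidney varied. Summed over 10 fat cell markers the level was 220 to 3005 FPKM (median 876) under normal chow and 97.7 to 855 FPKM (median 311) under the high-fat diet, with 8 of the 10 lower and 1, Lep, higher under the high-fat diet. Adrenal cortex markers summed to between 2.19 and 3836 FPKM under normal chow and to at most 4.67 FPKM under the high-fat diet. Cyp21a1, an adrenal steroid hydroxylase, exceeded 10 FPKM in normal chow ZT0 replicate 5, ZT4 replicates 2 and 3 and ZT16 replicate 4. The trend of expression over transcript GC content ran from -0.37 to 0.42 log2 per 10 points of GC, with normal chow ZT4 replicate 4 and ZT4 replicate 2 at the ends. In whole-kidney RNA, fewer cells of a type and less RNA per cell cannot be told apart.

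A few abundant carriers stood far above the rest of the family. FPKM is scaled to transcript length, which allows a rough comparison of levels between genes. The trend over GC content remains in these values, and its effect on the order of members was not tested. Slc25a5, an ADP/ATP exchanger, was the most abundant at a mean of 913 FPKM, followed by the glutathione carrier Slc25a39 at 586 FPKM and the phosphate carrier Slc25a3 at 560 FPKM. Slc25a4, the second expressed ADP/ATP exchanger, stood at 217 FPKM, the dicarboxylate carrier Slc25a10 at 149 FPKM and the oxoglutarate/malate carrier Slc25a11 at 101 FPKM. Slc25a5 ranged from 736 to 1070 FPKM and Slc25a39 from 467 to 725 FPKM, so the ranges of these neighbours did not overlap. Slc25a39 and Slc25a3 (507 to 626 FPKM) did overlap. Slc25a25 was the 16th member by mean level, at 31.0 FPKM. All 47 Slc25 genes, with the 10 below 1 FPKM included, summed to 3222 ± 141 FPKM under normal chow and 3134.5 ± 107 FPKM under the high-fat diet (SD, n = 18 each). The ranges of the diets overlapped. Slc25a5 is known to have processed pseudogenes, and how reads shared with them were assigned is not stated, so its level is uncertain. The gene span of Slc25a16 shares 626 bases with that of the processed pseudogene Gm16128 on its own strand. Whether exons share any of them was not examined, and an effect on the level of Slc25a16 was not tested.

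**Figure D1:**
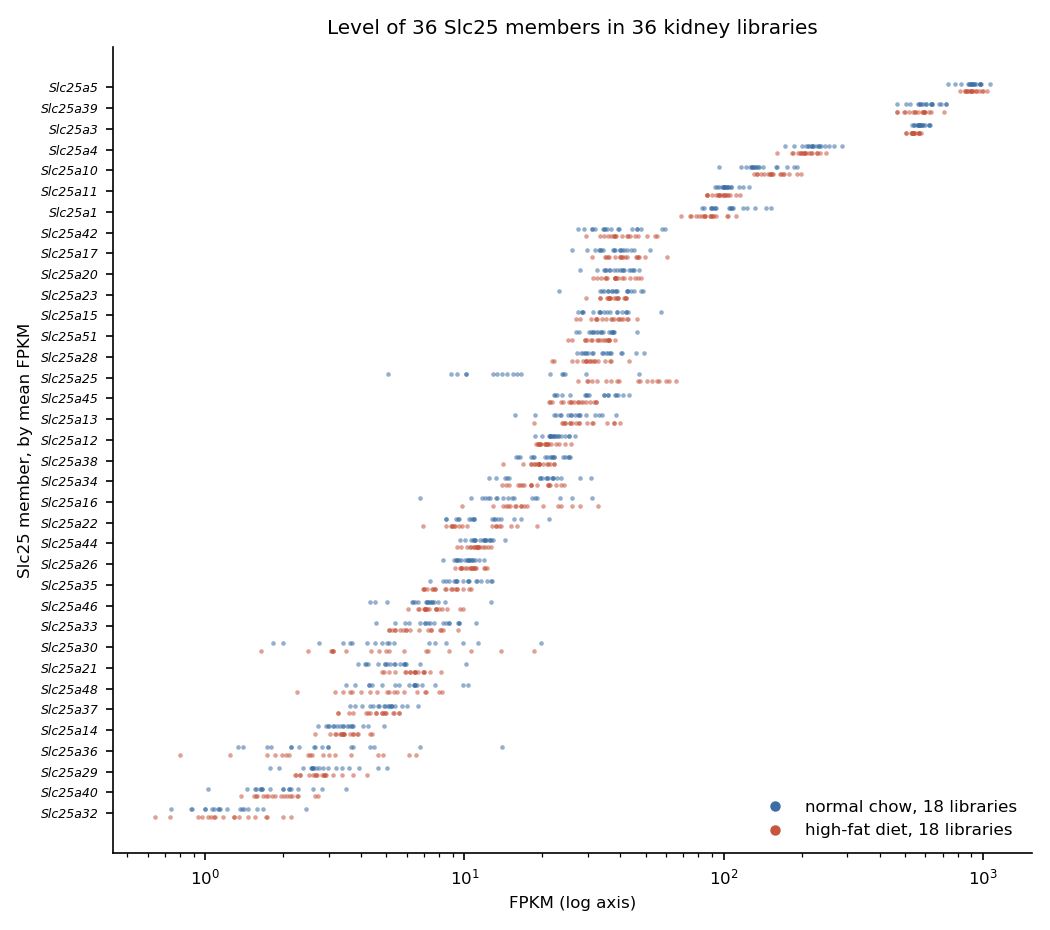
FPKM of 36 members (log axis) in the 18 normal chow libraries (blue) and the 18 high-fat libraries (red), one point per library, ordered by mean level. Slc25a5, Slc25a39 and Slc25a3 lie highest, and Slc25a25 is the member whose blue and red points are displaced furthest from each other.

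At the lower limit, the folate carrier Slc25a32 was kept with a mean of 1.27 FPKM, and Slc25a47 fell just short at 0.973 FPKM (0.321 to 1.70 FPKM under normal chow and 0.381 to 2.43 FPKM under the high-fat diet). Slc25a24, a relative of Slc25a25, averaged 0.526 FPKM, and Slc25a27, a relative of the uncoupling proteins, 0.511 FPKM. The remaining 7 averaged 0.127 FPKM or less, among them the testis ADP/ATP exchanger Slc25a31 (0.00562 FPKM, at 0 in 31 libraries) and Slc25a54, listed at 0 in all 36 libraries.

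Over all 6 times, Slc25a25 was the member with by far the widest diet difference, and the others moved little. Of the 37 members 2 were higher and 7 lower under the high-fat diet, and 28 did not pass the threshold (limma on log2(FPKM + 0.5), Benjamini-Hochberg adjusted p under 0.05 over all 11144 genes tested). The members called were 9 of 37. Among all genes tested 16.6% were called, 5.25% as higher and 11.4% as lower, and whether the members' share differs from this was not tested. The median log2 difference was -0.06 over the members and -0.03 over all genes, and 23 of 37 members had a negative difference. Slc25a25 and Slc25a10 were the members called higher, and those called lower included Slc25a45, Slc25a1, Slc25a35, Slc25a33, Slc25a3 and Slc25a12. Apart from Slc25a25, the 8 called members differed by between -0.27 and 0.17 log2. No member separated all 18 high-fat from all 18 normal chow libraries, which 0.126% of all genes did.

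**Figure D2:**
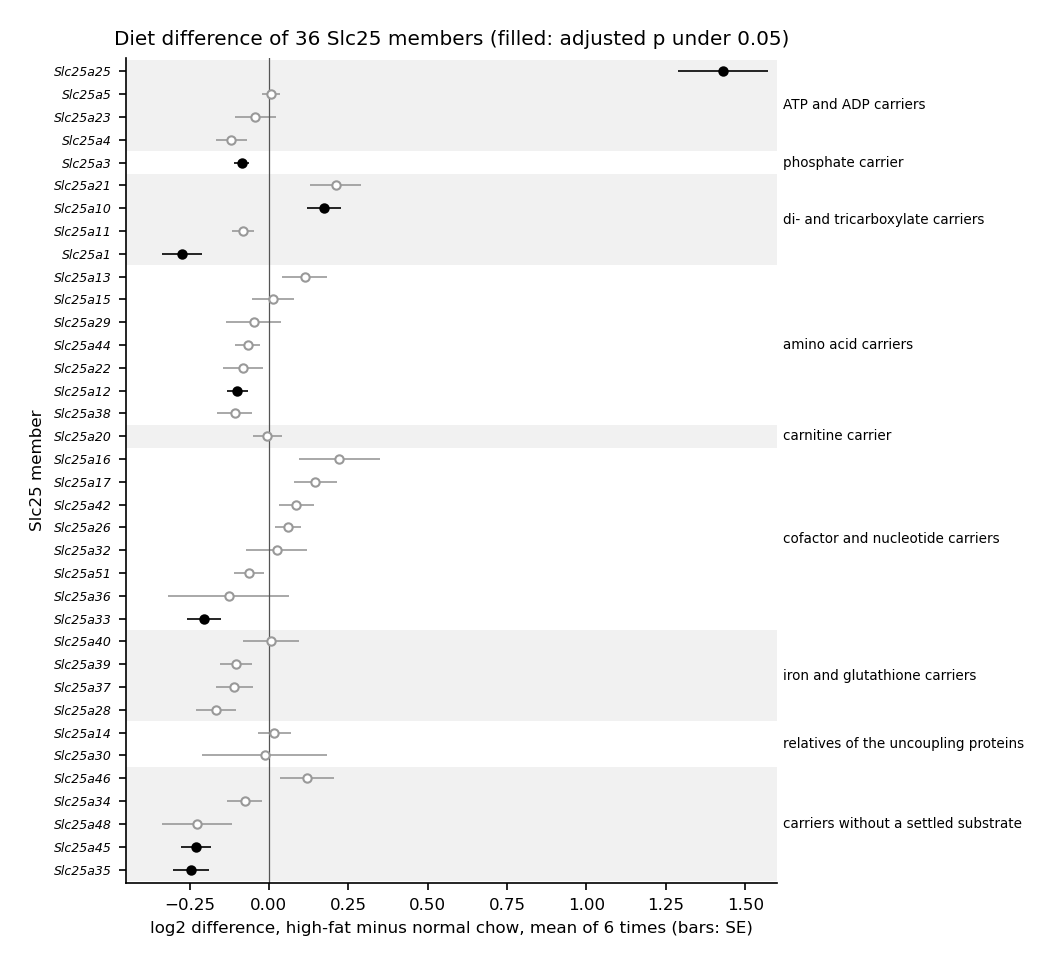
Log2 difference between diets (high-fat minus normal chow, mean of 6 times, bars SE) of 36 members, grouped by what they carry, with filled points for an adjusted p under 0.05. Slc25a25 stands at 1.43, and the other members drawn lie between -0.27 and 0.22.

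The number of small calls, and their split between higher and lower, changed with the scaling and with the covariate used. Across all genes, 68.4% of the 1850 calls were lower, against 49.97% of 1671 when libraries were rescaled by median ratio, 49.9% of 1676 by upper quartile and 42.5% of 2073 with the GC trend removed. Among the members 3 were then higher and 4 lower with either rescaling, and 5 higher and 4 lower with the GC trend removed. Slc25a3 and Slc25a12 missed the threshold with either rescaling. With the mean level of the fat cell markers as a covariate, Slc25a25 alone remained higher and Slc25a45 alone remained lower, while the calls over all genes fell to 2.54% higher and 4.89% lower. Among the members that then missed the threshold, Slc25a10 (0.21 with the covariate against 0.17 without), Slc25a12 (-0.13 against -0.10), Slc25a3 (-0.09 in both) and Slc25a33 (-0.21 in both) had log2 differences at least as large as before. Those of Slc25a1 (-0.20 against -0.27) and Slc25a35 (-0.18 against -0.25) were smaller. Without normal chow ZT4 replicate 4 there were 6 members higher and 9 lower, against 8.84% and 15.7% of all genes. Leaving out the 4 libraries with adrenal transcripts left normal chow ZT4 with a single mouse. The number of members called in that fit is not given here. Only Slc25a25 and Slc25a45 kept their call in all 12 of these and the other settings tried. The part of fat, adrenal and GC differences in the small calls was not tested further.

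Slc25a25 lies on chromosome 2 (GRCm38, positions 32414487 to 32451445, minus strand, GENCODE M21) and overlaps the opposite-strand gene Naif1 over 989 bases. The kit used does not mark strand, and Naif1 was at 0.183 to 0.707 FPKM. RefSeq (build GRCm38.p6, the assembly of mm10) lists 3 start sites for Slc25a25. The window before one of them holds the letters TGACGTCA, the cAMP response element bound by CREB-family factors. It is printed here because this member carries the diet difference, 5′ to 3′ on the minus strand, with the match in capitals beginning 150 bases before the start. The stretch is chr2:32424067-32424316, 250 bases long, inside the gene and outside every GENCODE M21 exon.
Slc25a25 upstream: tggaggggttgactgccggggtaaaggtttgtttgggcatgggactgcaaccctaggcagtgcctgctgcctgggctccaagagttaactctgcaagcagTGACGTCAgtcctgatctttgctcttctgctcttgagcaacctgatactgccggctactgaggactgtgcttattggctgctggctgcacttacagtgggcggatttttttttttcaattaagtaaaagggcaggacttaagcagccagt
TGACGTCA, which reads alike on both strands, is found in 1.79% of the 32851 RefSeq windows of 300 bases (250 before to 50 after a start). Of the 38 windows of members 2 hold it, and they belong to 2 of the 29 members that have a window, Slc25a25 and Slc25a36. A match is a description of the letters and not evidence of binding.

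The mean of Slc25a25 was higher in high-fat kidneys at each of the 6 times. Under normal chow the 3 mice had 13.4, 9.40 and 13.9 FPKM at ZT0, 16.6, 5.09 and 8.89 FPKM at ZT4, and 10.1, 12.9 and 23.96 FPKM at ZT8. Under the high-fat diet the corresponding values were 35.2, 47.6 and 36.7 FPKM at ZT0, 27.6, 29.8 and 38.9 FPKM at ZT4, and 39.5, 55.3 and 46.6 FPKM at ZT8. Through the light phase, every high-fat value exceeded every normal chow value of the same time. From ZT12 on, normal chow kidneys had 10.2, 21.4 and 23.8 FPKM at ZT12, 47.0, 24.5 and 29.5 FPKM at ZT16, and 15.4, 14.6 and 15.9 FPKM at ZT20. High-fat kidneys had 52.9, 60.1 and 56.4 FPKM at ZT12, 65.4, 61.7 and 31.1 FPKM at ZT16, and 29.95, 50.6 and 32.6 FPKM at ZT20. The groups were again apart at ZT12 and ZT20. At ZT16 they overlapped, since normal chow replicate 1 (47.0 FPKM) was above high-fat replicate 4 (31.1 FPKM).

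**Figure D3:**
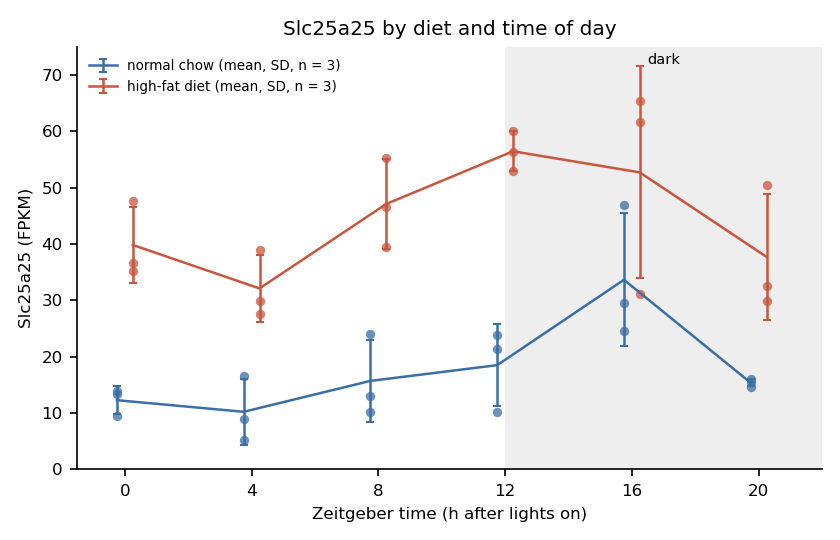
Slc25a25 in FPKM against Zeitgeber time, one point per mouse, with lines and bars for the mean and SD of 3 mice (blue normal chow, red high-fat diet, grey the dark phase). The red points lie above the blue ones at every time except ZT16, where 31.1 FPKM falls inside the normal chow range.

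Averaged over the 18 libraries per diet, Slc25a25 was at 17.6 ± 9.78 FPKM under normal chow (lowest 5.09, median 15.0, highest 47.0) and 44.3 ± 12.4 FPKM under the high-fat diet (lowest 27.6, median 43.0, highest 65.4). The log2 difference was 1.43 ± 0.14 (SE), or 2.69-fold (limma, adjusted p = 2.41e-08, higher at 6 of 6 times). Over the 12 other settings it stayed between 1.29 and 1.498, and over the 36 fits that each left out 1 library between 1.36 and 1.498, with adjusted p of at most 2.34e-05. Its correlation with the fat cell marker level was -0.14 (normal chow) and -0.04 (high-fat diet), n = 18 each, and with the GC trend -0.14 over all 36.

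Taken time by time, Slc25a25 was the only member past the threshold at any time, where 3.08% of all genes were past it at 1 or more. The difference was 1.67 log2 at ZT0 (3.18-fold, adjusted p = 0.00801), 1.74 at ZT4 (3.35-fold, 0.00777), 1.64 at ZT8 (3.11-fold, 0.0238) and 1.67 at ZT12 (3.19-fold, 0.0203), each with an SE of 0.35. At ZT16 the difference was 0.62 (1.54-fold, adjusted p = 0.801) and at ZT20 it was 1.23 (2.35-fold, 0.186). Among all genes tested, 0.637%, 0.476%, 0.108% and 0.162% were called higher at ZT0, ZT4, ZT8 and ZT12. The 3 high-fat values exceeded the 3 normal chow values in 6.76% of all genes at ZT0, 2.34% at ZT4, 7.83% at ZT8, 5.43% at ZT12 and 6.08% at ZT20. Whether the diet difference of Slc25a25 depended on time was tested directly and did not pass (limma F test of diet by time, adjusted p = 0.999).

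With 3 mice a group, single libraries decided the single-time calls. For Slc25a25 the ZT4 call was lost without normal chow replicate 3 of that time (adjusted p = 0.0621) and the ZT0 call without high-fat replicate 3 (0.0618). The ZT8 call was lost without any 1 of normal chow replicates 1 and 4 or high-fat replicates 1, 2 and 5 (up to 0.166), and the ZT12 call without any 1 of normal chow replicates 2 and 3 or high-fat replicates 2, 4 and 5 (up to 0.179). With no filter on low genes the ZT8 call also missed the threshold (0.0523), and with the fat cell covariate the ZT12 call did (0.0589). The number of members called at 1 or more times went from 1 to 9 without normal chow ZT4 replicate 2, to 4 without ZT4 replicate 4 and to 3 without ZT12 replicate 2, where 17.8%, 4.83% and 3.05% of all genes were called. It was 2 without normal chow ZT0 replicate 4 or 5, ZT4 replicate 3 or ZT8 replicate 5, and 2 without high-fat ZT4 replicate 5 or ZT16 replicate 4. Without the 4 libraries with adrenal transcripts it was 23, but 46.3% of all genes were then called, and normal chow ZT4 holds 1 mouse in that fit, assumed to vary like the other groups.

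The other ATP carriers did not pass the test of level. Slc25a23, the other calcium-binding ATP-Mg/phosphate carrier above 1 FPKM, was at 38.9 ± 6.06 and 37.4 ± 3.31 FPKM (SD, n = 18; -0.04 ± 0.06 log2, adjusted p = 0.703). Slc25a5 was at 912 ± 77.6 FPKM under normal chow and 914 ± 58.2 FPKM under the high-fat diet (0.01 ± 0.03, adjusted p = 0.915). Slc25a4 was at 226 ± 27.3 and 208 ± 20.7 FPKM (-0.12 ± 0.05, adjusted p = 0.0893) and passed as lower without the libraries with adrenal transcripts (-0.18, adjusted p = 0.00159) and without normal chow ZT0 replicate 5 or ZT4 replicate 2 alone (adjusted p = 0.0259 and 0.0173). Within this group of 4 measured carriers, 1 was thus called, against 16.6% of all genes.

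Slc25a3, which imports the phosphate used to make ATP, was slightly lower under the high-fat diet. It spanned 536 to 626 FPKM (median 573) under normal chow and 507 to 578 FPKM (median 539) under the high-fat diet, a difference of -0.09 ± 0.02 log2 (adjusted p = 0.0161, lower at 6 of 6 times). The ranges overlapped. With median ratio rescaling the difference was -0.05 and did not pass (adjusted p = 0.234).

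Carriers of di- and tricarboxylates went in both directions, with 1 higher and 1 lower of 4, against 5.25% and 11.4% of all genes. Slc25a1, which exports citrate from mitochondria and thereby supplies cytosolic acetyl-CoA, was at 82.9 to 152 FPKM (median 106) under normal chow and 68.3 to 112 FPKM (median 86.8) under the high-fat diet. The difference was -0.27 ± 0.06 log2 (adjusted p = 0.00254, lower at 6 of 6 times). Its highest values, 152, 146 and 132 FPKM, were in normal chow ZT4 replicates 3 and 2 and ZT0 replicate 5, which also held the most Cyp21a1, and without the 4 libraries with adrenal transcripts the difference was -0.17 (adjusted p = 0.0255). Slc25a1 also correlated with fat cell marker level over the normal chow libraries (r = 0.66, n = 18) and not in that direction over the high-fat libraries (r = -0.31, n = 18), and with that level as a covariate the difference was -0.20 (adjusted p = 0.126). These correlations describe libraries that share preparation and tissue makeup.

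Slc25a10, which exchanges malate and succinate for phosphate, was the other member called higher, at 96.0 to 192 FPKM (median 133) under normal chow and 131 to 199 FPKM (median 153) under the high-fat diet (0.17 ± 0.05 log2, adjusted p = 0.0271, higher at 6 of 6 times). It missed the threshold with the fat cell covariate (0.21, adjusted p = 0.0783) and without ZT0 and ZT4 (0.11, adjusted p = 0.168). The oxoglutarate/malate carrier Slc25a11 (104 ± 8.52 and 98.1 ± 8.26 FPKM, adjusted p = 0.106) and the oxoadipate carrier Slc25a21 (5.44 ± 1.39 and 6.28 ± 0.858 FPKM, adjusted p = 0.0731) did not pass.

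Of 7 amino acid carriers above 1 FPKM, 1 was lower, against 11.4% of all genes. Slc25a12, an aspartate/glutamate exchanger of the malate-aspartate shuttle, was at 22.5 ± 1.97 FPKM under normal chow and 20.99 ± 1.90 FPKM under the high-fat diet (-0.10 ± 0.03 log2, adjusted p = 0.0433), and this call was lost in 21 of the 36 fits that left out 1 library. Its paralog Slc25a13, or citrin, was at 26.6 ± 5.49 and 28.8 ± 5.77 FPKM (0.11 ± 0.07, adjusted p = 0.300). The glutamate carrier Slc25a22, the ornithine carrier Slc25a15, the glycine carrier Slc25a38, Slc25a29, which carries basic amino acids, and Slc25a44, which carries branched-chain ones, had differences from -0.11 to 0.01 log2 and did not pass. Slc25a20, which exchanges acylcarnitines for carnitine and so admits fatty acids for oxidation, was at 39.0 ± 5.01 and 38.8 ± 4.77 FPKM (-0.00 ± 0.05, adjusted p = 0.962).

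Among 9 cofactor and nucleotide carriers 2 were lower, against 11.4% of all genes. The pyrimidine nucleotide carrier Slc25a33 was at 4.57 to 11.1 FPKM (median 7.48) under normal chow and 5.12 to 9.43 FPKM (median 6.06) under the high-fat diet (-0.21 ± 0.05 log2, adjusted p = 0.00766). It was lower at 6 of 6 times and missed the threshold with the GC trend removed (adjusted p = 0.0570). The 7 that did not pass, including the NAD carrier Slc25a51, the S-adenosylmethionine carrier Slc25a26, the coenzyme A carrier Slc25a42 and the peroxisomal cofactor carrier Slc25a17, had differences from -0.13 to 0.22 log2. None of 4 iron and glutathione carriers passed. Slc25a39 was at 607 ± 70.4 and 565 ± 61.1 FPKM (-0.10 ± 0.05, adjusted p = 0.176), and passed without normal chow ZT4 replicate 4 (-0.13, adjusted p = 0.0294). The mitoferrins Slc25a28 and Slc25a37 did not pass either (adjusted p = 0.0749 and 0.205), nor did Slc25a14 and Slc25a30, relatives of the uncoupling proteins.

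Carriers without a settled substrate held 2 of the 7 lower members among their 5. Among all genes 11.4% were lower, and whether this group's share differs was not tested. Slc25a45 was at 22.2 to 43.1 FPKM (median 32.4) under normal chow and 21.2 to 32.3 FPKM (median 26.9) under the high-fat diet (-0.23 ± 0.05 log2, adjusted p = 0.00116, lower at 6 of 6 times). Its diet difference was spread unevenly over the day. At ZT20 normal chow kidneys had 40.7, 38.1 and 39.0 FPKM and high-fat kidneys 28.7, 31.6 and 29.5 FPKM, and at ZT12 normal chow kidneys had 22.3, 29.7 and 29.4 FPKM and high-fat kidneys 27.3, 25.9 and 27.4 FPKM. The groups were apart at ZT0, ZT16 and ZT20 and overlapped at the other times, although the test of diet by time did not pass (limma, adjusted p = 0.999). Among all genes, 12.8%, 8.06% and 10.3% had all high-fat values below all normal chow values at ZT0, ZT16 and ZT20.

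Slc25a35 was at 7.39 to 12.8 FPKM (median 10.1) under normal chow and 6.91 to 10.6 FPKM (median 8.46) under the high-fat diet (-0.25 ± 0.06 log2, adjusted p = 0.00265). With the fat cell covariate it missed the threshold (limma, -0.18, adjusted p = 0.133). At ZT16 it was at 11.1, 11.1 and 10.4 FPKM under normal chow against 6.91, 6.99 and 7.70 FPKM under the high-fat diet, a difference of -0.57 log2 that narrowly missed the single-time threshold (adjusted p = 0.0524). Its gene span overlaps that of the opposite-strand gene Rangrf (12.6 to 20.3 FPKM) over 1882 bases. Whether exons of both genes share bases was not examined, and reads from any shared exon could not be told apart without strand. Slc25a34, Slc25a46 and Slc25a48 did not pass.

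Daily rhythm was tested as a cosine with a 24 h period over the 18 libraries of each diet. Under normal chow 7 of 37 members were rhythmic, against 7.77% of all genes tested, and under the high-fat diet 6 of 37, against 7.3%. Whether these shares differ from the background was not tested. Slc25a45, Slc25a22, Slc25a33, Slc25a34 and Slc25a42 passed under both diets (5 members, against 3.49% of all genes), Slc25a25 was among those that passed under normal chow only, and Slc25a20 passed under the high-fat diet. The median fitted peak-to-trough difference of the members was 0.29 log2 (normal chow) and 0.28 log2 (high-fat diet), and over all genes 0.23 and 0.19. It was smaller under the high-fat diet for 20 of 37 members and for 6894 of 11144 genes. Without ZT0 and ZT4, which leaves 4 times, only Slc25a45 passed under normal chow (2.51% of all genes) and only Slc25a22 and Slc25a42 under the high-fat diet (2.3%). With time as a factor of 6 levels 2 and 23 members passed, against 3.37% and 28.4% of all genes under that model. With the GC trend removed 11 passed under normal chow, against 10.9% of all genes.

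**Figure D4:**
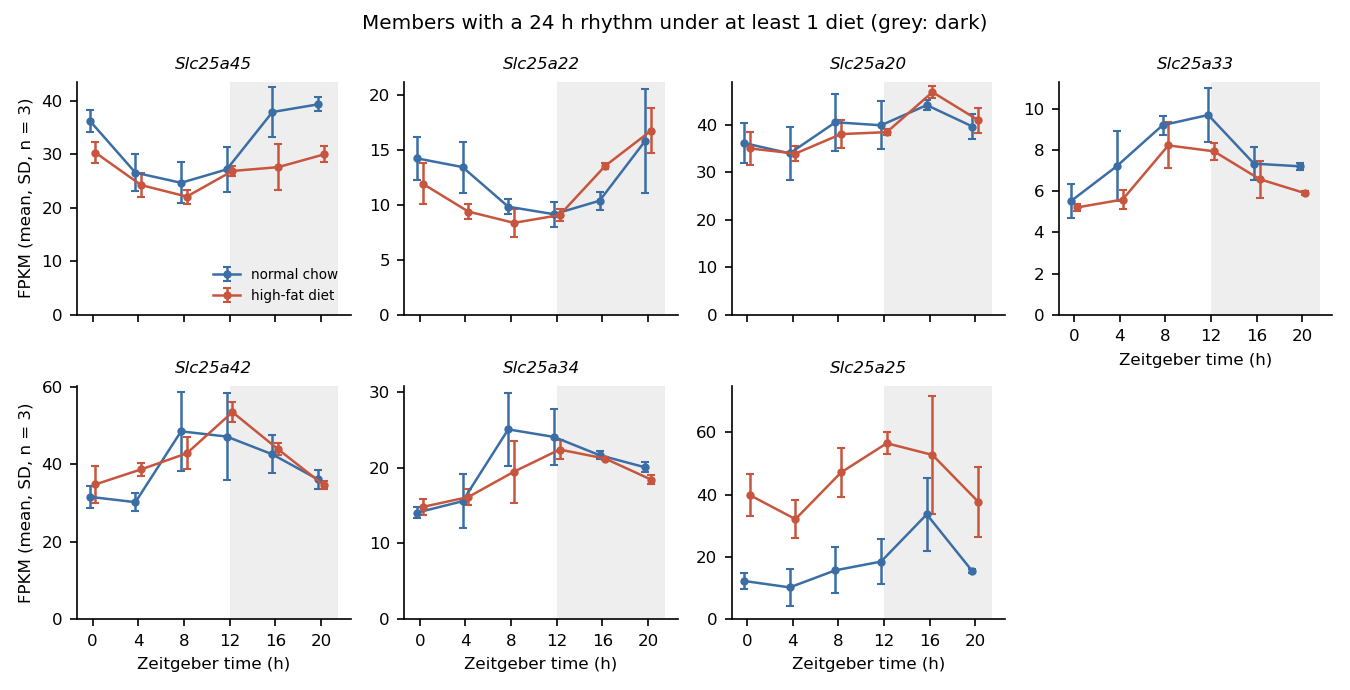
Mean FPKM (bars SD, n = 3) against Zeitgeber time for 7 members with a 24 h rhythm under at least 1 diet (blue normal chow, red high-fat diet, grey the dark phase). Slc25a45 and Slc25a22 have their lowest means at ZT8 or ZT12, where Slc25a33, Slc25a34 and Slc25a42 have their highest.

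The rhythmic members divided by the hour of their fitted peak. Slc25a33, Slc25a34 and Slc25a42 peaked around lights off. Slc25a33 peaked at 11.0 ± 0.778 h (SE) with normal chow and 11.2 ± 0.609 h with the high-fat diet, and its fitted peak-to-trough difference was 0.65 and 0.61 log2 (adjusted p = 0.0129 and 0.00174). Slc25a34, a carrier of unsettled substrate, peaked at 12.5 ± 0.716 h and 13.3 ± 0.579 h (0.77 and 0.57 log2, adjusted p = 0.00736 and 0.00103). Slc25a42, which brings coenzyme A into mitochondria, peaked at 12.3 ± 0.815 h and 11.5 ± 0.557 h (0.66 and 0.58 log2, adjusted p = 0.0176 and 0.000777). In single mice Slc25a42 went from 31.1, 29.0 and 34.5 FPKM at ZT0 to 35.6, 57.9 and 47.8 FPKM at ZT12 under normal chow. Under the high-fat diet it went from 38.2, 36.7 and 29.4 FPKM to 50.4, 55.2 and 54.6 FPKM. Its normal chow rhythm missed the threshold without the libraries with adrenal transcripts (adjusted p = 0.0801). No ZT12 value of Slc25a42 lay below a ZT0 value of the same diet, though under normal chow the nearest were 35.6 and 34.5 FPKM. ZT12 lies near the fitted peak, so these values are no separate support for the rhythm. The share of all genes with no ZT12 value below a ZT0 value was not counted.

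Slc25a45 and Slc25a22 peaked late in the dark phase. Slc25a45 peaked at 19.8 ± 0.527 h and 20.0 ± 0.839 h, and its fitted peak-to-trough difference was 0.76 ± 0.10 and 0.40 ± 0.09 log2 (SE; adjusted p = 0.00059 and 0.0214), and its high-fat call was lost without ZT8 replicate 1 or 2 or ZT20 replicate 3 (adjusted p up to 0.0578) and without ZT0 and ZT4 (0.134). Slc25a22, which moves glutamate into the matrix, where glutamate dehydrogenase can release ammonia from it, peaked at 23.2 ± 0.716 h under normal chow and 19.7 ± 0.433 h under the high-fat diet (0.75 and 0.94 log2, adjusted p = 0.00737 and 5.1e-05). Slc25a20 peaked at 15.8 ± 0.729 h under the high-fat diet (0.39 log2, adjusted p = 0.00782), and its fitted values under normal chow were similar, 14.8 ± 1.33 h and 0.31 log2, without passing (adjusted p = 0.172).

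Slc25a25 peaked at 15.3 ± 0.907 h under normal chow, in the first hours of the dark phase, with a peak-to-trough difference of 1.39 ± 0.33 log2, or 2.63-fold (adjusted p = 0.0342). Under the high-fat diet the fitted peak was at 13.0 ± 1.12 h and the difference 0.69 ± 0.20 log2, which did not pass (adjusted p = 0.0962). The rhythm itself was not shown to differ between diets (limma, adjusted p = 1.00). The normal chow call was lost without any 1 of 7 libraries, namely ZT0 replicate 4, ZT4 replicate 3, ZT8 replicate 4, ZT12 replicate 5 and ZT16 replicates 1, 4 and 5 (adjusted p up to 0.0834), and without the 4 libraries with adrenal transcripts (0.0975). It was also lost with no filter on low genes (0.0696) and without ZT0 and ZT4 (1.54 log2, adjusted p = 0.431). Conversely, Slc25a25 passed under the high-fat diet without ZT16 replicate 4, the low library of that time (0.83 log2, adjusted p = 0.0205).

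No member passed the test of a difference in rhythm between diets (limma, 0 of 37, against 0.0269% of all genes), and 4 had an unadjusted p under 0.05, namely Slc25a22, Slc25a14, Slc25a45 and Slc25a35, against 3.17% of all genes. Slc25a22 had the smallest adjusted p, 0.554. At ZT4 it was at 13.9, 15.5 and 10.9 FPKM under normal chow and 8.97, 8.97 and 10.2 FPKM under the high-fat diet, all lower. At ZT16 it was at 9.42, 10.9 and 10.8 FPKM under normal chow and 13.8, 13.2 and 13.6 FPKM under the high-fat diet, all higher. All 3 high-fat values lay below in 9.43% of all genes at ZT4 and above in 7.12% at ZT16. In the test of diet by time 0 members passed (0.0179% of all genes), and 2, Slc25a22 and Slc25a14, had an unadjusted p under 0.05 (2.75% of all genes). Leaving out normal chow ZT20 replicate 3 brought 1 member past the test of a difference in rhythm, and leaving out the 4 libraries with adrenal transcripts brought 8 past the test of diet by time. In that fit 16.1% of all genes passed, and normal chow ZT4 rests on 1 mouse.

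Slc25a33 is the only rhythmic member with an E-box, the letters CACGTG bound by the clock factors CLOCK and BMAL1, in its RefSeq window (build GRCm38.p6), so the stretch before its start is shown. It is 68 bases long, chr4:149774268-149774335 on the minus strand, printed 5′ to 3′ with the E-box in capitals beginning 8 bases before the start, and its last 10 bases lie in an exon of the GENCODE M21 model.
Slc25a33 upstream: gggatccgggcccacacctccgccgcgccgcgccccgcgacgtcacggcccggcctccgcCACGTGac
CACGTG, which reads alike on both strands, occurred in 7.15% of all 32851 windows and in 7 of the 38 windows of members. Those windows belong to 6 of the 29 members with a window (Slc25a1, Slc25a13, Slc25a14, Slc25a15, Slc25a33 and Slc25a36). Overlapping windows of Slc25a14 hold the same E-box, so the count of windows includes that site more than once. Of the 8 rhythmic members 7 had a window, and 1 held an E-box and 1, Slc25a25, the cAMP response element. The D-box letters TTATGTAA, searched on both strands, occurred in 0.938% of all windows and in 0 member windows. The absence of a match says only that these letters are not in the window.

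The genes whose levels followed Slc25a25 most closely over the 36 libraries were found by Pearson correlation of log2 levels, given as a description because the libraries share diets, times and preparation. Pck1, the cytosolic enzyme that commits oxaloacetate to gluconeogenesis, came first, with r = 0.92 over all 36 libraries, 0.85 over the 18 normal chow and 0.69 over the 18 high-fat libraries. Its lowest and highest values were 288 and 919 FPKM with normal chow, and 669 and 1938 FPKM with the high-fat diet. Slc13a3, a plasma membrane dicarboxylate transporter (r = 0.86), the gene model Gm4956 (0.84), Slc37a4, the glucose-6-phosphate transporter of the endoplasmic reticulum (0.83), and Pdxk, which activates vitamin B6 (0.83), followed. All 5 were higher under the high-fat diet by between 0.32 and 1.24 log2, so the diet difference contributes to each r over all 36. With the mean of each of the 12 groups removed, r was 0.61 for Pck1 and between 0.36 and 0.55 for the others. Within the family, the closest were Slc25a42 (0.48), Slc25a10 (0.45) and Slc25a13 (0.39). With group means removed their order and 1 sign changed, to 0.44, 0.60 and -0.10, and Slc25a38, at 0.05 over all 36 libraries, stood at 0.50.

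**Figure D5:**
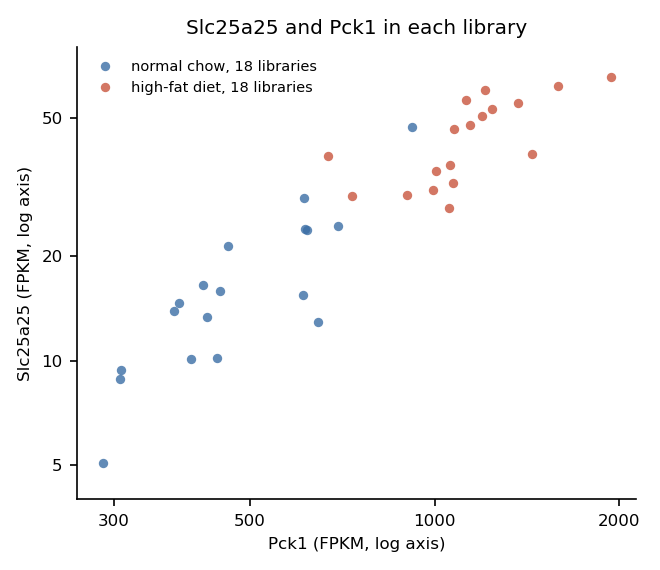
Slc25a25 against Pck1 in FPKM, both on log axes, with one point per library (18 normal chow in blue, 18 high-fat in red). Points of both diets run along one rising band, from 288 to 1938 FPKM of Pck1 and 5.09 to 65.4 FPKM of Slc25a25.

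Genes that work with the carriers were compared from the same fit. Of 4 measured family genes with other symbols none was called. Ucp2 was at 88.6 ± 17.6 and 88.4 ± 11.6 FPKM (0.02 ± 0.09 log2, adjusted p = 0.928), Mtch1 and Mtch2 had adjusted p of 0.410 and 0.659, and Ucp1, the uncoupling protein of brown fat, reached 76.3 FPKM in 1 normal chow library and 73.9 FPKM in 1 high-fat library and was 0 in 3 libraries (adjusted p = 0.541). Of 15 genes for import of carriers into the inner membrane 1 was higher, Timm8a1 (0.15 ± 0.05 log2, adjusted p = 0.0282), and 1 lower, Timm9 (-0.11 ± 0.04, adjusted p = 0.0293), both small chaperones of the intermembrane space. Of 18 genes of general mitochondrial content 1 was higher, the outer membrane channel Vdac1 (442 ± 31.1 to 485 ± 28.5 FPKM, 0.13 ± 0.02, adjusted p = 2.66e-05), and 1 lower, citrate synthase Cs (-0.10 ± 0.03, adjusted p = 0.0204). The median difference was 0.02 log2 over these 18 genes and -0.00 over the 15 import genes. Among all genes tested 5.25% were higher and 11.4% lower, and whether the shares of these lists differ was not tested.

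Of 15 genes of metabolite shuttles and carrier partner enzymes 5 were higher and 0 lower, against 5.25% and 11.4% of all genes. These shares were not tested, and the 15 include Mpc1 and Mpc2, subunits of the mitochondrial pyruvate carrier. Glutamate dehydrogenase, Glud1, was at 97.0 ± 13.1 and 121 ± 21.4 FPKM (0.31 ± 0.06, adjusted p = 0.000598). The mitochondrial glycerol-3-phosphate dehydrogenase Gpd2 (0.24 ± 0.07, adjusted p = 0.0174), Cpt2, which frees acyl-CoA from the acylcarnitine that Slc25a20 delivers (0.19 ± 0.04, adjusted p = 0.000598), and the cytosolic malate dehydrogenase Mdh1 (0.12 ± 0.03, adjusted p = 0.00502) were called higher as well. The carriers beside them, Slc25a22 for glutamate and Slc25a20 for acylcarnitine, did not pass for level.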

How the data were processed

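RNA of 36 kidneys was extracted with TRIzol and sequenced from TruSeq RNA v2 libraries, per the labels' protocols. The authors deposited FPKM values in 1 table per diet with 24883 rows. The submitters' processing notes name CASAVA 1.8.2, Bowtie, Cuffnorm and the build mm10, and no version of Bowtie or Cuffnorm is given in the sources used here. Whether 1 Cuffnorm run made both tables is not stated, so a difference between runs cannot be told apart from diet.

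Rows of repeated symbols (817 rows, 280 symbols) were left out. Genes with mean FPKM of at least 1 were tested as log2(FPKM + 0.5) with limma 3.58.1 (trend) in R 4.3.3. Differences are on this scale, which understates changes of low genes. Level used 12 group means; rhythm used cosine and sine terms of a 24 h period. P-values were adjusted over all 11144 genes.

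Absolute depth is not in the files. Relative depth, from steps between low values (85.6% within 0.05 of whole multiples over 1167 genes), was 0.337 to 1.45 times the mean, and the shallowest libraries are least precise for low members. No 2 libraries held identical values (0 pairs). P-values measure the spread between these mice.

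Named members are Slc25a25, the 6 most abundant, all called for level or rhythm, and those nearest the lower limit; other members are named in their group. A few genes taken by this rule or by the lists are not reported here; every fit and count still includes them. Members, lists and tests were chosen with earlier results of these data known. Alternatives covered pseudocount, filter, scaling, prior, replicate block, GC, adrenal and fat transcripts, times, time as a factor and each library. The fitting code was tested on simulated data. Coordinates are GENCODE M21 on GRCm38. Promoter windows are RefSeq's, matched by symbol for 29 of 37 members.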

Additional observations from a re-analysis of the deposited data

How the results depend on the processing

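No called result changed direction under any setting. Members higher and lower over all times, 2 and 7, were 2 to 6 and 6 to 9 over the fits that left out 1 library. Where 6 and 9 were called, without normal chow ZT4 replicate 4, so were 8.84% and 15.7% of all genes. Lower members numbered 4 with libraries rescaled by median ratio (7.49% of all genes), 4 by upper quartile (7.5%) and 4 with the GC trend removed (7.9%). With the fat cell covariate there was 1 (4.89%). Higher members numbered 5 with the GC trend removed (10.7%) and 1 with that covariate (2.54%). The fit without the libraries with adrenal transcripts, which leaves 1 mouse in normal chow ZT4, is not counted here. Members called at single times, 1, were 2 with a minimum mean of 5 FPKM (3.74% of all genes tested) and 5 with the GC trend removed (5.28%). They were 2 without ZT0 and ZT4 (2.26%) and 1 to 9 over the fits that left out 1 library. Where 9 were called, so were 17.8% of all genes. Rhythmic members under normal chow, 7, were 11 with the GC trend removed (10.9% of all genes) and 1 without ZT0 and ZT4 (2.51%). They were 2 with time as a factor (3.37%) and 5 to 7 with 1 library left out. Under the high-fat diet, 6, they were 2 without ZT0 and ZT4 (2.3% of all genes), 23 with time as a factor (28.4%) and 5 to 7 with 1 library left out. Diet by time called 0 members in each fit with 1 library left out, and the difference in rhythm called 0 to 1. Fewer libraries enter where libraries or times are dropped; the cause was not tested otherwise. Of 12 pairs of libraries with the same replicate number at one time, 6 had deviations correlated above 0.1 (-0.18 to 0.26). Pairs of different numbers were not set beside them, so this does not decide whether the numbers pair mice. The main fits treated the mice as unpaired. With a replicate block, 2 members were higher and 8 lower (4.76% and 10.4% of all genes), and 1 was called at single times (2.28%). Under each diet 6 were then rhythmic (6.17% and 4% of all genes), and 0 differed in rhythm or by diet and time. With that block Slc25a4 passed as lower (-0.13 log2, adjusted p = 0.0408), and Slc25a25 at ZT8 (0.0911), its normal chow rhythm (0.0732) and the high-fat rhythm of Slc25a45 (0.122) did not pass. Low depth limits the members near 1 FPKM most.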

Other observations

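Members differed widely in how far single libraries spread, whatever the diet. The pyrimidine nucleotide carrier Slc25a36 ranged 17.5-fold between its lowest and highest library (0.799 to 14.0 FPKM), Slc25a30, a relative of the uncoupling proteins, 12.0-fold (1.64 to 19.7 FPKM) and Slc25a16, linked to coenzyme A transport, 4.89-fold (6.72 to 32.9 FPKM). At the other end Slc25a3 ranged 1.24-fold and Slc25a12 1.42-fold. Slc25a25 ranged 12.8-fold, and of these 6 members it differed most by diet. The median SD within groups was 0.17 log2 over the members and 0.19 over all genes.

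The spread of Slc25a36, Slc25a30 and Slc25a16 moved with the trend of each library over transcript GC content. Their correlation with that trend over the 36 libraries was -0.81, -0.71 and -0.93, and their transcripts hold 40.7%, 45.4% and 43.4% GC. For GC-rich Slc25a39 (59.7% GC) and Slc25a1 (59.1% GC) it was 0.83 and 0.73. In all 14 of 37 members had a correlation of at least 0.7 in size, as did 24.9% of all genes tested. Slc25a36 and Slc25a30 both reached their highest value in normal chow ZT4 replicate 4, the library with the lowest GC trend. The origin of this trend was not tested.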
